A study of Zea mays with 12 samples.

Results

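Plasma membrane intrinsic proteins (PIPs) are the aquaporins of the plant cell surface, and 6 maize PIP genes were followed here in giant cells and control cells of roots infested with the root-knot nematode Meloidogyne incognita. The genes were PIP1-3, PIP1-5, PIP2-1, PIP2-4, pip2-5 and PIP2-6, and every probe set that the platform annotation assigns to one of them, by symbol or synonym, was taken. This gave 11 probe sets, of which 10 passed the filter on low signals, among 1108 named genes and 17621 probe sets in all. The genes were picked from results in which their signal differed between giant and control cells, so their differences between these cell types are given below as a description and without a test. Differences between the sampling days were not themselves used for the choice and were tested, but they rest on the same arrays. The array carries 10 named PIP genes, and the other 4 are PIP1-1, pip1-2, pip2b and pip2c.

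Aquaporins are channel proteins that let water, and in some cases other small uncharged molecules, cross a membrane along its gradient. Land plants have several classes, named for where they were first found, among them the PIPs of the plasma membrane and the tonoplast intrinsic proteins (TIPs) of the vacuole. PIPs fall into a PIP1 and a PIP2 class. Maize PIP2 proteins conduct water on their own when made in frog oocytes, whereas maize PIP1 proteins made alone there show little activity and reach the plasma membrane in the company of a PIP2 partner. A giant cell is an enlarged, multinucleate root cell that the nematode induces and feeds from, and large flows of water and solutes pass through it.

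The plants carried a cross of A188 and B73 as their genotype and were inoculated as seedlings of 2 weeks with 1000 stage-2 juveniles. Laser capture took giant cells (about 40 to 60 cells, 5000000 square micrometres) or control cells (about 75 to 150 cells, 13000000 square micrometres) at 14 and at 21 days after inoculation. Both kinds of sample came from nematode-infested plants, since the control cells were cut from regions of those roots without nematodes. Each of the 4 groups had 3 arrays, which the labels call biological replicates without tying an array to a plant. The labels name no root layer for the control cells, and in captured tissue fewer cells of a type and less RNA per cell cannot be told apart.

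Values are MAS5 signals, the linear brightness of a probe set after the manufacturer's algorithm, and a signal of one probe set is not set against that of another. Array medians lay between 182 and 229.9, and correlations of log2 signal between arrays of a group between 0.84 and 0.93. The 40th percentile of an array, which was used as the mark of a low signal, lay between 113 and 135. Bacterial and phage control transcripts added to the arrays (9 probe sets) were brighter on giant-cell arrays by 0.70 log2 units, 0.59 at 14 days and 0.82 at 21 days. Rescaling every array to those transcripts moved the median difference of all tested probe sets between giant and control cells from 0.15 to -0.53 log2 units. For the 6 genes the rescaled difference between cell types is given with each gene. The 18S rRNA probe set was also brighter on giant-cell arrays, by 0.80 log2 units. The log2 ratio of the 3' to the 5' actin probe set was -4.83 to -0.29 on control arrays and -4.48 to -1.69 on giant-cell arrays. It differed between giant and control cells by -1.43 at 14 days and 0.14 at 21 days. The part of these measures in the PIP differences was not tested.

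Of the 6 genes, 5 had lower signals in giant cells than in control cells and 1, PIP1-3, had higher signals, by the brightest probe set of each gene. The median difference over the 6 genes was -2.28 log2 units averaged over the days (-2.83 at 14 days, -2.39 at 21 days), whereas it was 0.15 (0.16 and 0.13) over all 12080 tested probe sets. All 3 giant-cell arrays lay below all 3 control arrays on both days for 4 of the 6 genes, against 9.83% of all tested probe sets. At 14 days this held for 5 of the 6 genes, against 17.3%. At 21 days 4 genes were lower without overlap, against 15.5%, and 1 was higher without overlap, against 22.7%. These shares are given for scale only, because this contrast chose the genes. Of all tested probe sets, 25.1% were called higher and 17.0% lower in giant cells by limma at a Benjamini-Hochberg adjusted p of 0.05.

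**Figure D1:**
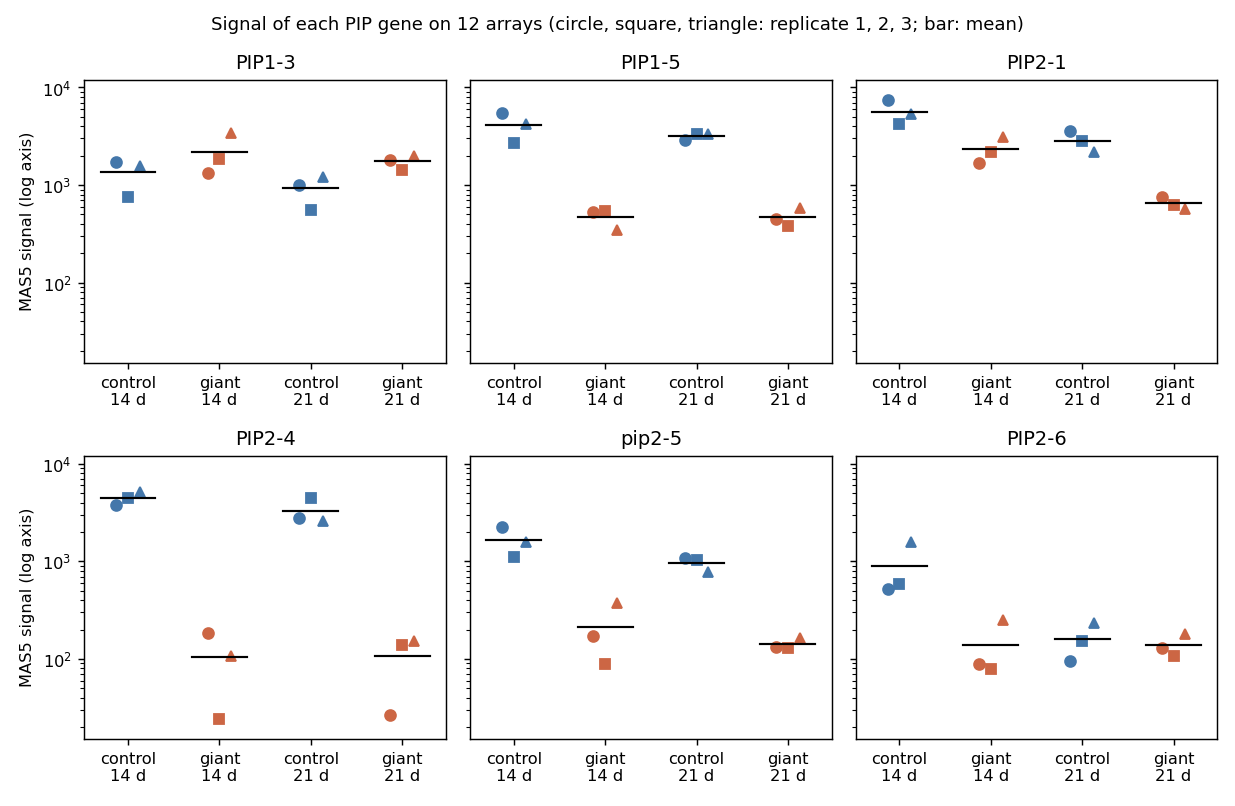
MAS5 signal (log axis) of the brightest probe set of each PIP gene on the 12 arrays, with control cells in blue and giant cells in orange, replicates 1, 2 and 3 as circle, square and triangle, and the mean of 3 arrays as a bar. In PIP1-5, PIP2-1, PIP2-4 and pip2-5 every giant-cell point lies under the control points of its day, in PIP2-6 they do so at 14 days, and in PIP1-3 the giant-cell means are the higher ones.

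The PIP1 class is described first. PIP1-5 (Gene ID 542014, probe set Zm.334.1.S1_at) gave signals of 5524, 2724 and 4241 in control cells at 14 days and of 530, 540.0 and 347 in giant cells. At 21 days the control signals were 2878, 3358 and 3333, and the giant-cell signals were 444, 384 and 588. Giant and control arrays were far apart on both days, and the groups of one cell type overlapped between days. Group means were 4163 ± 1402 and 473 ± 108 at 14 days and 3189.6 ± 271 and 472 ± 105 at 21 days (SD, n = 3). PIP1-5 was thus 7.55-fold lower in giant cells over both days, a difference of -2.92 ± 0.20 log2 units (standard error of the fit), with -3.08 ± 0.28 at 14 days and -2.75 ± 0.28 at 21 days. Rescaled to the added transcripts, these differences were -3.61, -3.67 and -3.56.

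PIP1-3 (Gene ID 541886), for which the gene table also lists the name PIP1-4, moved the other way. Its brightest probe set, Zm.16315.3.S1_a_at, gave 1729, 760.1 and 1573 in control cells of 14 days, against 1334, 1838 and 3423 in giant cells. At 21 days control cells gave 1004, 550.2 and 1218, against 1792, 1436.5 and 2006. The groups overlapped at 14 days, where the second control array was low and the third giant-cell array high, and were apart at 21 days. Means were 1354 ± 520.3 against 2198 ± 1090.1 at 14 days and 924 ± 341 against 1745 ± 288 at 21 days (SD, n = 3). The signal was 1.77-fold higher in giant cells over both days (0.82 ± 0.28 log2 units), with 0.67 ± 0.40 at 14 days and 0.97 ± 0.40 at 21 days. Rescaled to the added transcripts, the difference shrank to 0.12 over both days, 0.082 at 14 days and 0.16 at 21 days, so its size depends on the scaling.

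PIP1-3 has 5 probe sets, and 4 of them were bright and moved together. Their differences over both days were 0.82, 0.84 ± 0.28 (Zm.16315.1.S1_x_at), 0.74 ± 0.26 (Zm.16315.1.S1_a_at) and 0.52 ± 0.27 (Zm.16315.3.S1_x_at) log2 units, and the last of these turned to -0.17 when rescaled to the added transcripts. Between any 2 of the 4, the root mean square difference of log2 signal over the 12 arrays, after each was centred on its own mean, was 0.0864 to 0.277. The suffixes of these names mark probe sets whose probes may also match related transcripts, so the 4 are not independent readings of PIP1-3. The fifth, Zm.16315.2.A1_at, gave signals of 2.32 to 87.1, lay below the 40th percentile on all 12 arrays and was not tested. Its pattern differed from the 4 bright ones by 1.07 to 1.18.

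**Figure D2:**
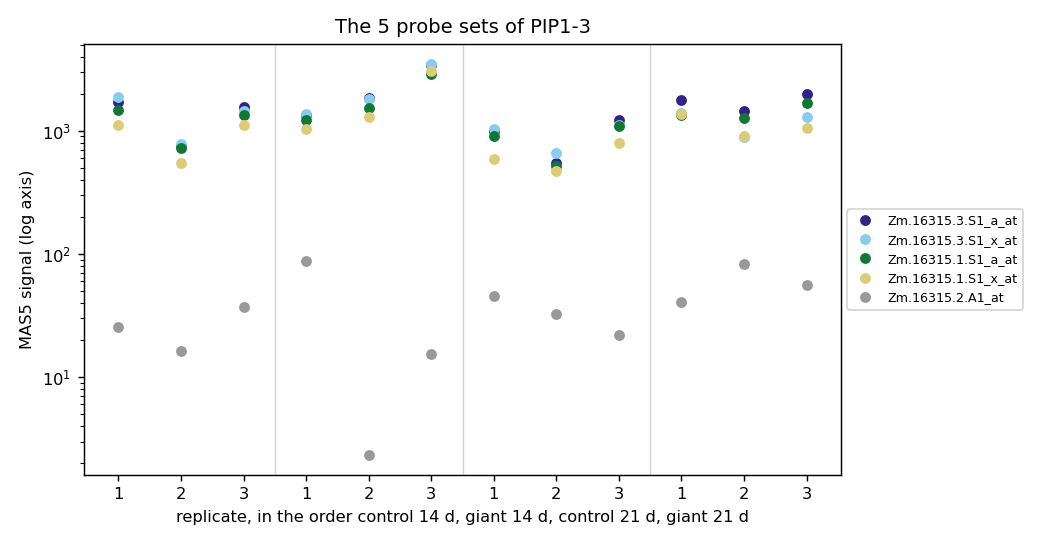
MAS5 signal (log axis) of the 5 PIP1-3 probe sets on each of the 12 arrays, ordered by group along the horizontal axis, with 1 colour per probe set. The 4 bright probe sets rise and fall together from array to array, and the grey one stays below 100 with no such pattern.

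In the PIP2 class, PIP2-4 (Gene ID 541890, Zm.15890.1.A1_at) had the largest difference between cell types of the 6 genes. Control cells of 14 days gave signals of 3744, 4489.8 and 5140.2, and giant cells gave 184, 24.4 and 108. At 21 days the control signals were 2779, 4413 and 2589.7, and those of giant cells 26.5, 139.6 and 153. The control arrays were uniformly bright, while 2 giant-cell arrays at 14 days and 1 at 21 days lay below the 40th percentile of their array. Means were 4458 ± 699 against 105 ± 79.7 and 3260.5 ± 1002 against 106 ± 69.5 (SD, n = 3). The signal was 40.1-fold lower in giant cells over both days (-5.33 ± 0.44 log2 units), 48.4-fold at 14 days (-5.60) and 33.2-fold at 21 days (-5.05). These became -5.99, -6.16 and -5.82 when rescaled to the added transcripts. Single giant-cell arrays weigh on the size, which was -4.88 at 14 days without the second array and -4.35 at 21 days without the first. Because the giant-cell signals are near the floor, the size depends on the offset added before taking logarithms, from -5.51 with an offset of 1 to -4.74 with an offset of 50.

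The gene pip2-5 (Gene ID 542619, Zm.600.1.S1_at) was intermediate. At 14 days the control signals were 2254, 1097 and 1567, against 172, 89.1 and 371 for giant cells. At 21 days the control signals were 1095, 1024 and 774, against 134, 129 and 163. No giant-cell array reached a control array on either day, and the second giant-cell array at 14 days was below the 40th percentile. Means were 1639.5 ± 582 against 211 ± 145 and 964 ± 168 against 142 ± 18.8 (SD, n = 3). This was 7.30-fold lower in giant cells (-2.87 ± 0.29 log2 units), with -3.06 ± 0.41 at 14 days and -2.68 ± 0.41 at 21 days, close to the size in PIP1-5. Rescaled to the added transcripts, the values were -3.55, -3.64 and -3.46.

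PIP2-1 (Gene ID 541888) was lower in giant cells by less than PIP2-4 and pip2-5. Its bright probe set, Zm.14436.1.A1_at, gave 7404, 4193 and 5388 in control cells of 14 days, against 1698, 2174 and 3109 in giant cells. At 21 days the control signals were 3585, 2806 and 2159.8, against 747, 627 and 572. On each day no giant-cell array reached a control array, but giant cells of 14 days overlapped control cells of 21 days. Means were 5662 ± 1623 and 2327 ± 718 at 14 days and 2850.0 ± 713 and 649 ± 89.6 at 21 days (SD, n = 3). The difference between cell types was -1.69 ± 0.20 log2 units over both days (3.23-fold), -1.28 ± 0.28 at 14 days (2.44-fold) and -2.10 ± 0.28 at 21 days (4.28-fold). Rescaled to the added transcripts, it was -2.39, -1.87 and -2.90.

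A second probe set assigned to PIP2-1, Zm.605.2.A1_at, was dim and did not follow the first. It gave 139.7, 127 and 139 in control cells at 14 days, and on the other 9 arrays it lay between 51.3 and 96.0, below the 40th percentile of each. It therefore passed the filter only through the control cells of 14 days. Its differences between giant and control cells were -0.87 ± 0.35 log2 units at 14 days and 0.09 ± 0.35 at 21 days, the latter turning to -0.63 when rescaled to the added transcripts. Its centred pattern differed from the bright PIP2-1 probe set by 1.01 and from Zm.605.1.S1_a_at, which the annotation gives to pip2b, by 0.363. Both names carry the number 605 of 1 transcript cluster, so which PIP2 gene Zm.605.2.A1_at reports is uncertain.

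PIP2-6 (Gene ID 541891, Zm.607.1.A1_at) had a larger difference between cell types at 14 days than at 21 days. Control cells of 14 days gave 523, 589.8 and 1563, against 88.1, 78.2 and 250.1 in giant cells. Control cells of 21 days gave 96.3, 154 and 232, against 131, 106 and 182. The control arrays of 14 days stood above all 9 others, and the remaining 3 groups overlapped. Means were 892 ± 582 against 139 ± 96.5 at 14 days and 161 ± 68.0 against 139.8 ± 38.8 at 21 days (SD, n = 3). The difference was -2.61 ± 0.50 log2 units at 14 days (6.09-fold lower) and -0.14 ± 0.50 at 21 days. Rescaled to the added transcripts, it was -3.18 at 14 days and -0.90 at 21 days. With 1 array left out the value at 21 days lay between -0.44 and 0.15. Of the 9 arrays outside the control cells of 14 days, 4 were below their 40th percentile, so the level there is near the floor.

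**Figure D3:**
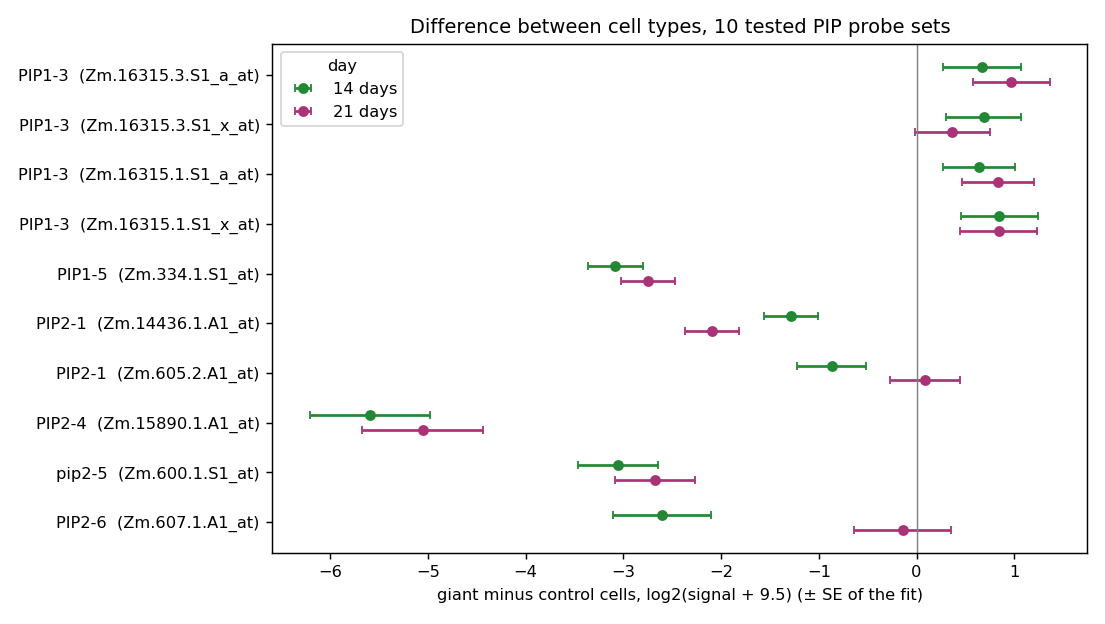
Difference between giant and control cells, log2(signal + 9.5), for each of the 10 tested probe sets at 14 days (green) and 21 days (purple), with standard errors of the fit. The 4 PIP1-3 probe sets lie to the right of 0 (of these Zm.16315.3.S1_x_at at 21 days turned to -0.44 when rescaled to the added transcripts), PIP2-4 lies furthest to the left, and PIP2-6 and the dim PIP2-1 probe set differ from 0 by more than their error at 14 days only.

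Set side by side, the PIP2 genes had the larger mean difference, but this rests on which genes and probe sets are in each class. Each gene was centred on its mean over the 12 arrays and the genes of a class were averaged. Giant minus control cells then came to -1.05 log2 units for the 2 PIP1 genes and -2.81 for the 4 PIP2 genes, a gap of 1.77, with 1.93 at 14 days and 1.60 at 21 days. On every control array the PIP1 value minus the PIP2 value was below 0 (-1.23 ± 0.38 at 14 days and -0.54 ± 0.41 at 21 days, SD, n = 3), and on every giant-cell array it was above 0 (0.70 ± 0.70 and 1.06 ± 0.32). After the centring these values average 0 over the 12 arrays, so opposite signs in the cell types largely restate the gap. The PIP1 value averages 2 genes that moved in opposite directions, PIP1-5 with -2.92 and PIP1-3 with 0.82, so it describes neither. No test was made, since the genes were chosen on this contrast.

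With all 10 PIP genes on the array the gap between the classes was 0.081 log2 units, -1.83 for 4 PIP1 genes and -1.91 for 6 PIP2 genes. It was 0.46 at 14 days and -0.30 at 21 days. The PIP2 value rests on the brighter of the 2 probe sets of pip2c, and with the dimmer one it was -2.67 and the gap 0.84 over both days. Of the 4 added genes, PIP1-1 (Zm.181.1.A1_at) was lower in giant cells by limma (-3.13 ± 0.31 log2 units, adjusted p = 2.4e-05). Its means were 7472 and 1136 at 14 days and 5241 and 507 at 21 days. The gene pip1-2 (Zm.573.1.A1_at) also fell (-2.08 ± 0.28, limma adjusted p = 0.00017), from 1768 to 512 at 14 days and from 1149 to 243 at 21 days. Both are PIP1 genes, so 3 of the 4 PIP1 genes on the array had lower signals in giant cells and PIP1-3 stood apart from them.

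The 2 added PIP2 genes were less clear. The gene pip2b gave means of 42.9 to 131 and was not tested. For pip2c the brighter probe set, Zm.606.1.A2_s_at, showed means of 3630.3 and 3842 at 14 days and 2086 and 2526 at 21 days, a difference of 0.14 ± 0.23 log2 units (limma adjusted p = 0.66) that turned to -0.57 when rescaled to the added transcripts. The dimmer probe set, Zm.606.1.A1_at, had means of 521 and 21.3 at 14 days and 385 and 8.89 at 21 days (-4.42 ± 0.45). It lay below the 40th percentile on every giant-cell array and passed the filter only through the control cells, so its difference is given without a test. Their centred patterns were 2.45 apart, and the name of the first marks probes that may also match other transcripts, so the pip2c signal is uncertain.

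**Figure D4:**
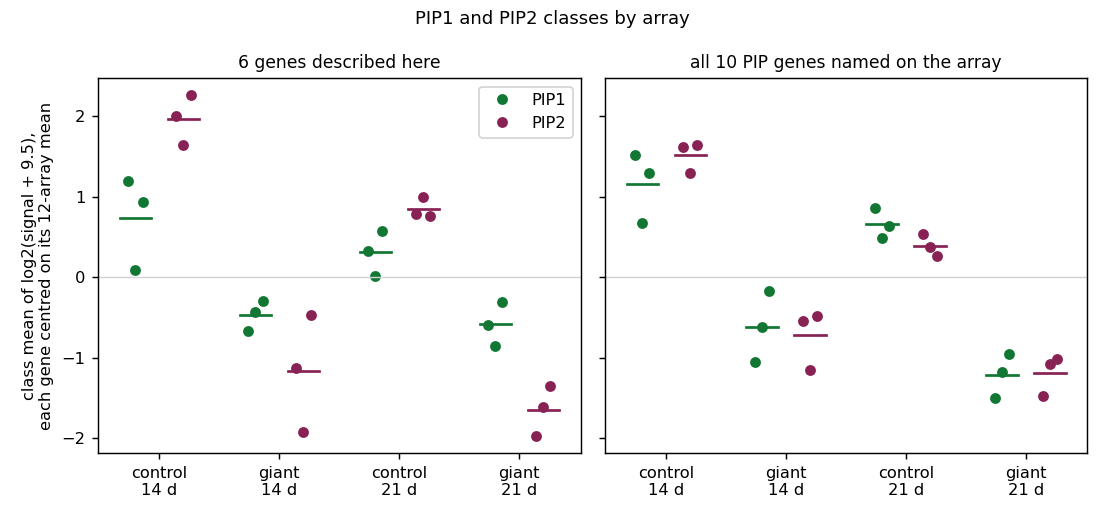
Class mean of log2(signal + 9.5), each gene centred on its mean over 12 arrays, for PIP1 (green) and PIP2 (purple), with 1 point per array and the group mean as a bar. On the left, with the 6 genes, the PIP2 points start higher in control cells and end lower in giant cells than the PIP1 points, and on the right, with all 10 PIP genes and the brighter probe set of pip2c, the classes lie together.

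The days were compared within each cell type. This contrast did not itself choose the genes, but it shares its arrays with the differences that did. The tests between days may therefore not be independent of the choice. In giant cells PIP2-1 fell by 1.79 ± 0.28 log2 units from 14 to 21 days, a 3.46-fold lower signal (n = 3 arrays a day, limma adjusted p = 0.0151). All its arrays of 21 days lay below all those of 14 days, which held for 14.7% of all tested probe sets. The bright PIP2-1 probe set was the single one called among the 10 of these genes, where 0.364% of all tested probe sets were called lower and 0.273% higher. The call was lost when any of 4 giant-cell arrays was left out: limma adjusted p was 0.062 without array 2 and 0.073 without array 3 of 14 days, and 0.064 without array 1 and 0.068 without array 3 of 21 days. Without array 3 of both 14-day groups it was 0.10, with a difference of -1.56. The dim second probe set of PIP2-1 showed 0.07 ± 0.35 in the same contrast.

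No other PIP gene passed the test between days in giant cells. The differences were 0.00 ± 0.28 log2 units for PIP1-5 (limma adjusted p = 1.00), 0.06 ± 0.62 for PIP2-4 (0.97), 0.16 ± 0.50 for PIP2-6 (0.90), -0.23 ± 0.40 for PIP1-3 (0.80) and -0.33 ± 0.41 for pip2-5 (0.72). The other bright probe sets of PIP1-3 gave -0.30, -0.54 and -0.81, none of them called. The standard errors of PIP1-3, pip2-5, PIP2-6 and PIP2-4 leave room for differences of about 1 log2 unit, so a missing call does not show a constant level. Giant-cell signals of PIP2-4 and PIP2-6 also lay near the floor. On simulated data for this contrast, with 200 of 12080 probe sets changed, limma recovered 159 changes of 2 log2 units and 13 of 1 log2 unit.

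**Figure D5:**
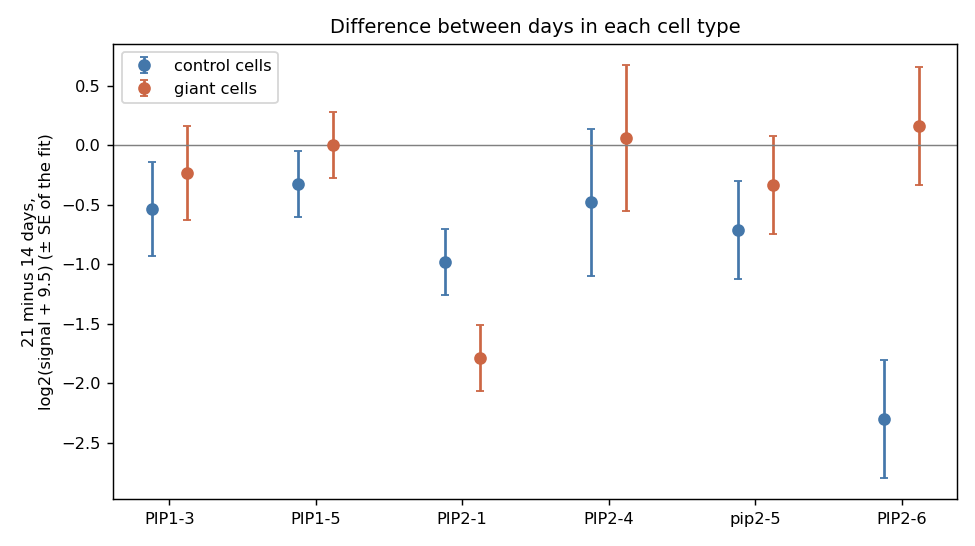
Difference between 21 and 14 days in log2(signal + 9.5) for the brightest probe set of each gene, in control cells (blue) and giant cells (orange), with standard errors of the fit. All 6 control-cell points lie below 0, with PIP2-6 the lowest, and PIP2-1 is the lowest giant-cell point.

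In control cells all 6 genes had lower signals at 21 than at 14 days, but none passed the test. The median over the 6 genes was -0.62 log2 units, against -0.02 over all tested probe sets, of which 51.7% were below 0. It was -0.66 over the 3 tested PIP genes outside the 6 and -0.47 over all 16 tested other aquaporin genes. A lower median was thus not particular to the 6 genes. The arrays of the days did not overlap for 3 of the 6 genes, PIP2-1, pip2-5 and PIP2-6, against 7.49% of all tested probe sets. PIP2-6 showed the largest difference, -2.30 ± 0.50 log2 units or 4.93-fold (limma adjusted p = 0.24). PIP2-1 followed with -0.98 ± 0.28 (limma adjusted p = 0.33) and pip2-5 with -0.71 ± 0.41 (limma adjusted p = 0.59). PIP1-3 showed -0.53, PIP2-4 -0.48 and PIP1-5 -0.33, with adjusted p of 0.67, 0.82 and 0.71 by limma. limma called 3 of all tested probe sets, 0.0248%, in this contrast. At an unadjusted p under 0.05 stood 1190 of all tested probe sets, 9.85%, and 2 of the 6 genes, PIP2-1 and PIP2-6.

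Whether the difference between giant and control cells itself changed from 14 to 21 days was tested as the interaction of cell type and day, and no PIP gene passed. The largest change was that of PIP2-6, 2.46 ± 0.70 log2 units (limma adjusted p = 0.49). PIP2-1 went the other way, by -0.81 ± 0.39 (limma adjusted p = 0.73), and PIP1-3, PIP1-5, PIP2-4 and pip2-5 lay between 0.30 and 0.54 with adjusted p of 0.92 to 0.96. The value of PIP1-3 is that of its brightest probe set. Its other bright probe sets gave 0.19, -0.0076 and -0.32, so its direction depends on the probe set. limma called 0 of all 12080 probe sets, 0.0%, in this contrast, while 839, 6.95%, and of the 6 genes PIP2-6 had an unadjusted p under 0.05. On simulated data for this contrast limma recovered 99 of 200 changes of 2 log2 units and 1 of 200 of 1 log2 unit.

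The order of the 4 groups differed between genes. For PIP2-1 the control groups came first and the giant-cell groups last, each with day 14 above day 21, and the middle neighbours overlapped. For pip2-5 the order was the same, and only the 2 giant-cell groups overlapped. For PIP1-5 and PIP2-4 the 2 control groups overlapped each other, as did the 2 giant-cell groups, so the arrays separate cell types alone. For PIP2-6 only the control cells of 14 days were separate from their next neighbour, and for PIP1-3 all neighbours in the order overlapped.

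Arrays of a group did not rank alike for all genes. In giant cells at 14 days the third array was the highest for 4 of the 6 genes (PIP1-3, PIP2-1, pip2-5 and PIP2-6) and the lowest for PIP1-5. In giant cells at 21 days the third array was the highest for 5 of the 6 genes, all but PIP2-1. In control cells at 14 days the second array was the lowest for 4 genes and the highest for none. The part of these arrays in the results is shown only by the values without them.

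The PIP genes resembled each other to different degrees over the 12 arrays. By the root mean square difference of centred log2 signal, PIP1-5 and pip2-5 were the closest pair (0.585) and PIP1-3 and PIP2-4 the farthest (3.22), so the closest pair crosses the classes. PIP2-1 and PIP2-6 are near neighbours on the same chromosome of the B73 reference assembly Zm-B73-REFERENCE-NAM-5.0, with 2 annotated genes between them, 1 of them protein-coding. Their patterns were 1.06 apart, farther than PIP2-1 was from pip2-5 (0.864).

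Among 684 other named genes with a symbol, those with the nearest pattern were listed for each PIP gene as a description, since all share the same 12 arrays. For PIP2-1 they were the PIP1 gene pip1-2 (0.491), the spermidine synthase gene spds2 (0.58) and the tonoplast aquaporin gene tip1 (0.606), against a median of 1.29 over the candidates. For pip2-5 they were tip1 (0.393), kin11 (0.412) and pip1-2 (0.580), against 1.62. For PIP2-4 they were the TIP genes por2 (0.811), TIP2-2 (0.828) and TIP2-1 (0.845), against 2.80. Aquaporin genes made up 16 of the 684 candidates, 2.34%.

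For PIP1-5 the nearest were the aldehyde oxidase gene AO1 (0.411), ciszog1 (0.504), which encodes a cis-zeatin O-glucosyltransferase, and the amylase gene Amy2 (0.543), against a median of 1.55. For PIP1-3 they were m20 (0.328), SE1B (0.373) and the TATA-binding protein gene tbp1 (0.380), against 0.850. These 3 had differences between giant and control cells of 0.92 to 1.13 log2 units, near that of PIP1-3. For PIP2-6 they were the lipoxygenase gene lox3 (0.778), the cystatin gene cpi2 (0.793) and the phospholipase D gene PLD1 (0.872), against 1.34. This was a looser likeness than for PIP1-3, PIP1-5, PIP2-1 and pip2-5. Of the 12 nearest places of the 4 PIP2 genes 7 were thus held by other aquaporin genes, and of those of the 2 PIP1 genes 0 of 6. In this count tip1 and pip1-2 each stand for both PIP2-1 and pip2-5. The likeness includes the size of the difference between cell types, which chose the genes. The counts are therefore a description and no result about the classes.

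Among the other aquaporin genes, 16 of 24 were tested, and by limma 7 were lower and 1 was higher in giant cells over both days, with a median of -1.32 log2 units. Among all tested probe sets 17.0% were lower and 25.1% higher by the same rule. Rescaled to the added transcripts, the counts of the 16 became 10 and 0 and the median -1.93, while those of all 12080 probe sets became 5050 lower and 456 higher. The largest differences were those of por2 (-6.04 ± 0.34, limma adjusted p = 1.6e-07), TIP2-2 (-5.23 ± 0.28, adjusted p = 1.2e-07), TIP2-1 (-4.60 ± 0.44, adjusted p = 1.7e-05) and the silicon channel gene Lsi1 (-4.31 ± 0.45, adjusted p = 3.1e-05). The one that rose was TIP4-1, from means of 34.0 and 64.3 in control cells to 79.9 and 150.7 in giant cells at 14 and 21 days (1.29 ± 0.41, limma adjusted p = 0.025), a call lost under that scaling. Control means of TIP4-1 and giant-cell means of por2, TIP2-2 and Lsi1 lay under the mark of a low signal. These genes may have passed the filter through the other cell type alone, so their calls are a description. Of the TIP genes 4 of 7 tested fell, of the NIP genes 1 of 3, and of the SIP genes 0 of 3, which became 5, 2 and 1 when rescaled. None of the 16 was called between days in either cell type, where 0.637% of all tested probe sets were called in giant cells.

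Of 6 other genes for ion and proton transport, 4 were tested. The plasma membrane proton pump gene mha4 was lower in giant cells (-1.50 ± 0.21 log2 units, limma adjusted p = 0.00019), with means of 8828 and 2720 (control and giant cells) at 14 days and of 8933 and 3713 at 21 days. The potassium channel gene kch4 was higher (1.19 ± 0.40, adjusted p = 0.028), with means of 58.9 and 244 at 14 days and of 99.4 and 118 at 21 days, and its call was lost when rescaled to the added transcripts. The proton pump gene mha1 (0.16) and the vacuolar pyrophosphatase gene H+-PPase (0.28) did not pass, and both turned negative under that scaling. The median of the 4 was 0.22 and turned to -0.48 with them.

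Some markers of root tissues also differed between the cell types. Of 4 xylem markers 3, the secondary wall cellulose synthase genes cesa10, cesa11 and CesA12, were lower in giant cells over both days by limma (median of the 4, -2.52 log2 units). LAC1 went the other way without passing (0.40 ± 0.29, limma adjusted p = 0.28) and turned to -0.28 when rescaled to the added transcripts. The count of xylem markers called lower was 3 at 14 days and 0 at 21 days, where that rescaling made it 2. The summed signal of the 4 at 14 days was 1596 to 3022 in control cells, against 308 to 1017 in giant cells, and at 21 days it was 715 to 2744 against 314 to 702. Lsi1, which in rice roots is made in the exodermis and endodermis, gave 892 to 5047 and 35.5 to 192 at 14 days, and 1271 to 1713 and 46.5 to 156 at 21 days. The xylem sum and Lsi1 thus lay lower in giant cells on each day, without overlap.

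Of the root hair and epidermis markers, rop6 was lower (-2.11) and rbohB higher (0.76, a call lost when rescaled) in giant cells over both days. Their summed signal overlapped between cell types at 14 and at 21 days. Of 3 genes listed as meristem regulators, lg3 and rs2 were higher over both days (1.94 and 1.54, with 1 of the 2 calls left when rescaled). Their control means at 14 and 21 days were near the floor, 35.6 and 54.1 for lg3 and 41.0 and 32.7 for rs2. Both may have passed the filter through the giant-cell arrays alone, so these calls are a description. At 21 days alone 0 of them were called. KN-1 was not tested and stayed low, with group means of 17.3 to 32.7. The sums of the 3 were 60.4 to 126 in control cells and 225 to 487 in giant cells at 14 days. The phloem marker sut1 stayed at or below 44.3 on all arrays, and of the 3 photosynthetic markers pep1 and rbcS had group means of at most 16.9. The other photosynthetic marker, C4ppdkZm1, was brighter, with means of 276 and 236 (control and giant cells) at 14 days and of 226 and 181 at 21 days. Its difference was -0.26 ± 0.25 log2 units (limma adjusted p = 0.42), and it was called lower when rescaled (-0.93). The part of the cell types held by the control samples in the PIP differences was not tested.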

How the data were processed

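RNA of laser-captured maize root cells was amplified (NuGEN WT-Ovation Pico) and hybridized to the Affymetrix maize array, per the labels. The deposited values are intensity, MAS5 signals on a linear scale, which the authors computed with Affymetrix Expression Console, per the submitters' processing notes. The scan batch of an array is not given in the sources used here. Here 113 control probe sets were left out, 9.5 (the 10th percentile of all signals) was added and log2 was taken. Probe sets above the 40th percentile of their array on at least 3 arrays were kept, 12080 of 17621. Means of the 4 groups were fitted to all of them with limma 3.58.1 (eBayes with trend, R 4.3.3), and two-sided p-values were adjusted by Benjamini-Hochberg over the 12080 in each of 6 contrasts, at a threshold of 0.05. Standard errors are from that fit, and 3 arrays a group limit their precision. Folds are on the log2(signal + 9.5) scale, which understates changes of dim genes. The script was tested on simulated data.

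The platform annotation names 1 gene for 1452 probe sets and several for 1, and 1060 of 1108 genes are in the RefSeq gene table, which served for names and neighbours alone. The brightest probe set stood for a gene. Named were every member probe set, the 3 genes nearest in pattern to each member, up to 4 genes of each other list with the largest difference, and the markers as lists. Other genes named (all PIP genes, TIP4-1, mha1) complete their list. Members and lists were chosen with earlier results of these data known. Replicate numbers did not pair arrays: only 4 of 18 correlations of same-numbered deviations exceeded 0.1 (range -0.07 to 0.24). Alternatives were offsets of 1 and 50, no filter, a filter on 6 arrays, quantile normalization, scaling to added transcripts, no variance trend, a replicate block and each array left out.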

Additional observations from a re-analysis of the deposited data

How the results depend on the processing

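With all alternatives run on the PIP values, 346 of 371 results were labelled the same in direction, side of the threshold and size. With 1 array left out, 495 of 516 were. Many of these differences could not move. A contrast within 1 day does not use the group means of the other day. A changed filter, variance trend or replicate block left the differences themselves as they were. Some changes of sign were also labelled the same, as for PIP2-6 between cell types at 21 days (-0.44 to 0.15). The totals are therefore no measure of stability. Scaling to the added control transcripts moved the median difference of the 6 genes between giant and control cells to -2.97 over both days, -3.41 at 14 days and -3.18 at 21 days, and turned the calls over all probe sets from 3038 higher and 2054 lower to 456 and 5050. It cut the calls between days in giant cells from 77 to 8 higher and 11 lower. The gap between the PIP classes was 1.57 to 1.90 with 1 array left out and 0.081 with all 10 PIP genes, or 0.84 with the dimmer probe set of pip2c among them, alternatives chosen after seeing the data. The count of PIP probe sets called between days in giant cells was 0 to 1 with 1 array left out and 0 without array 3 of both 14-day groups, also chosen after seeing the data. The PIP2-1 difference kept its call under the 8 other alternatives (-1.92 to -1.73, limma adjusted p 0.014 to 0.036), the replicate block included (0.036). With the replicate block the adjusted p of PIP2-6 was 0.063 between days in control cells and 0.19 for the interaction, and calls between days in giant cells over all probe sets were 18 higher and 30 lower. Without a filter these were 19 and 23, without a variance trend 19 and 29, and with quantile normalization 55 and 63. Uncalled differences near 0 changed sign. Between days in giant cells PIP1-5 turned to -0.13 and PIP2-4 to -0.053 with the added-transcript scaling, and without array 3 of both 14-day groups PIP1-3 turned to 0.14, PIP1-5 to -0.20 and pip2-5 to 0.17. With 1 array left out the same contrast spanned -0.53 to 0.14 for PIP1-3, -0.20 to 0.14 for PIP1-5, -0.66 to 0.77 for PIP2-4, -0.81 to 0.17 for pip2-5 and -0.12 to 0.66 for PIP2-6. The interaction spanned -0.029 to 0.68 for PIP1-3, -0.18 to 1.25 for PIP2-4 and -0.091 to 0.88 for pip2-5. Where an alternative drops arrays or probe sets, fewer values enter the fit, and for the others the cause was not tested. Signals near the floor, as for PIP2-4 and PIP2-6 in giant cells, limit what can be read of their changes between days.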
